A study of Mus musculus with 4 samples.

Results

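Hi-C contacts of 10 genes that mark fibroblasts were read in 2 matrices labelled as male mouse embryonic stem cells (mESCs). The genes were Col1a1, Col1a2, Col3a1, Col6a3, Postn, Twist1, Prrx1, Thy1, Fbn1 and Lox, a list of known fibroblast genes that was drawn up with earlier results of these data known. Each locus comprised the 40 kb bins within 500 kb of the gene body in the mm9 mouse genome. The loci held 272 of the 66382 bins, and all 272 were kept in both matrices. The genes were 10 of 21238 autosomal protein-coding genes whose compartment preference over such a window (defined below) could be measured. A share of all genes is over the autosomal protein-coding genes with the measure in question. In the main settings these numbered 20798 for gene bodies, 21192 for local contacts and 20520 for insulation and boundaries.

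Hi-C joins DNA ends that lie close together in the nucleus and counts the joined fragments, here cut with HindIII, as read pairs. The series compared wild-type (WT) and Firre KO cells to ask what deletion of the Firre long non-coding RNA locus on the X chromosome does to topologically associating domains (TADs). Each group had 2 libraries, which the methods describe as technical duplicates, and both libraries of a group were pooled in 1 matrix. No difference below therefore has a replicate check, no significance test was made, and every interval is a 95% interval that covers counting error only.

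The groups are named by genotype, and by the methods their culture differed as well. WT was the N3 line in 2i medium. The Firre KO mESCs were grown in 2i medium on irradiated feeder fibroblasts, which were depleted on gelatin before use. The sources differ on feeders for WT, since a legend and the culture methods name them for Firre KO alone and another passage has both cultures on feeders. The methods do not say that the Firre KO cells came from the N3 line. Labelled genotype, culture and cell line thus cannot be told apart. In a pooled matrix, a difference in all cells also cannot be told apart from a larger one in a part of them. Hi-C measures no RNA, so the labels could be checked at loci only. The share of fibroblast chromatin in either matrix was not tested.

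The matrices, called WT and KO-labelled here after their labels, held 65611035 and 46635652 read pairs, of which 16.1% and 35.6% joined different chromosomes. The bin that lies wholly within Firre (6720401G13Rik in the annotation, bin chrX:47920001-47960000) held 1782 read pairs in WT and 2011 in the KO-labelled matrix. Per 1000000 read pairs of the X chromosome these were 1374 and 1127. The loss of nearly all read pairs that a deletion of this bin would give was not seen. Whether the cells of the KO-labelled matrix carried the deletion was not tested, and directions are given for the matrix under its label. X chromosome read pairs numbered 2.02 per 100 autosomal read pairs in WT and 3.98 in the KO-labelled matrix. Both matrices are labelled male, and the reason for this difference was not tested. Of 6 pluripotency marker loci, Pou5f1, Nanog, Sox2, Klf4, Esrrb and Zfp42, 4 preferred the active compartment in WT and 3 in the KO-labelled matrix, as did 68.1% and 60.3% of all genes, and their median preference (defined below) was 0.63 and -0.23.

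Fibroblasts build and maintain connective tissue. They secrete fibrillar collagens, which are assembled outside the cell, crosslinked by lysyl oxidase and laid down beside microfibrils of fibrillin, and their identity rests on mesenchymal transcription factors such as Twist1 and Prrx1. In the nucleus, chromatin is divided into an active A compartment and a less active B compartment, each of which contacts its own kind more often. Genes that are silent in a cell type often lie in B there, and a locus can lie in B in one cell type and in A in another.

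The promoters of the loci with the largest differences and of the locus with the opposite direction are shown to give their sequence context. RefSeq promoters were found for 7 of the 10 genes, not for Col1a1, Thy1 or Lox. Each sequence below is the 250 bases before the RefSeq start, on the strand of the gene and 5′ to 3′, placed in mm9 by an exact match. Capitals mark every CG dinucleotide and every TATAAA on the strand of the gene.
Col3a1 (chr1:45368133-45368382, plus strand): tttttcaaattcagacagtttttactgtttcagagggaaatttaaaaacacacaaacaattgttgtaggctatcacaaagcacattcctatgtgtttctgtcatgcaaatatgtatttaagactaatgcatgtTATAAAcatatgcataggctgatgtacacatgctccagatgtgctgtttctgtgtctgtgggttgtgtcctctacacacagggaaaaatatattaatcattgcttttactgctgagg
Prrx1 (chr1:165243782-165244031, minus strand): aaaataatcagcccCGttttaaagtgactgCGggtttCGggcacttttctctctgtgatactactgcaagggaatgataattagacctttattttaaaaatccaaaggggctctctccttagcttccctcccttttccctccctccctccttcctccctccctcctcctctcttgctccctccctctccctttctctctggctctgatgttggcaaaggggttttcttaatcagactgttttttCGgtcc
Twist1 (chr12:34642286-34642535, plus strand): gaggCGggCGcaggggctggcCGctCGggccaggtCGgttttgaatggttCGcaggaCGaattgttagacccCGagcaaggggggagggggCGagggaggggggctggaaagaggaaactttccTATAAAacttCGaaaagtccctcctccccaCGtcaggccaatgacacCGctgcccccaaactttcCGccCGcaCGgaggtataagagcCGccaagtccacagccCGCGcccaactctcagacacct
Postn (chr3:54164779-54165028, plus strand): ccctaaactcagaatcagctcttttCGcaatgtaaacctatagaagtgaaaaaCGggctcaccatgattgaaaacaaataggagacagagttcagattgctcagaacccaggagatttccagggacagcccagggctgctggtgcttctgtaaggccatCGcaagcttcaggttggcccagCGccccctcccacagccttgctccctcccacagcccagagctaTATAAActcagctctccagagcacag

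The 3 promoters of the largest differences had little in common at this level. Col3a1 had 0 CG, Prrx1 had 4 and Twist1 had 18, beside a median of 6 over 32851 RefSeq promoters of the same length. TATAAA on the strand of the gene was found in 3 of the 8 promoters of the 7 genes, those shown for Col3a1, Twist1 and Postn, and in 7.59% of all promoters. It began 117 bases before the RefSeq start at Col3a1, 126 at Twist1 and 26 at Postn, so its position was not shared. A second Postn promoter and those of Prrx1, Col1a2, Col6a3 and Fbn1 did not hold it. A 40 kb bin is far longer than these promoters, so the contacts below are those of the surrounding chromatin and not of the promoter itself.

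Compartment preference was the log2 of a locus's mean contact with A windows over that with B windows of the same chromosome, from 2 Mb away and relative to the mean of equally distant windows. A value above 0 is a preference for A. The reference A and B windows were the 200 kb windows with the same sign of the first eigenvector in both matrices, 75.9% of 11835 windows, and between 8208 and 23462 read pairs in WT and between 3549 and 10531 in the KO-labelled matrix lay behind each locus's value. In WT, 6 of the 10 loci preferred B, where 31.9% of all genes did, and in the KO-labelled matrix 1 did, where 39.7% did. These 6, Col3a1, Prrx1, Twist1, Lox, Fbn1 and Col1a2, went from below 0 to above 0, as did 5.5% of all genes. Postn went the other way, as did 13.3% of all genes. The preference was higher by at least 0.25 at 8 loci and lower at 1, where 30.4% of all genes were higher by that much and 38.1% were lower. The median over the loci was -0.22 in WT and 0.99 in the KO-labelled matrix, and the median difference was 1.08, beside 0.59, 0.31 and -0.08 for all genes. Such a crossing of 0 depended on the correction of the matrix. In uncorrected read pairs only Twist1 crossed 0, where 3.32% of all genes did, because the other WT values then lay above 0, while the median difference was 1.07. From contacts with other autosomes 4 loci crossed 0, where 2.85% of all genes did. With the A and B windows of WT alone, which drop the requirement on the KO-labelled matrix, the median difference was 0.70, and 7 loci were higher by at least 0.25 and 2 lower, where 21.9% and 37.6% of all genes were.

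**Figure D1:**
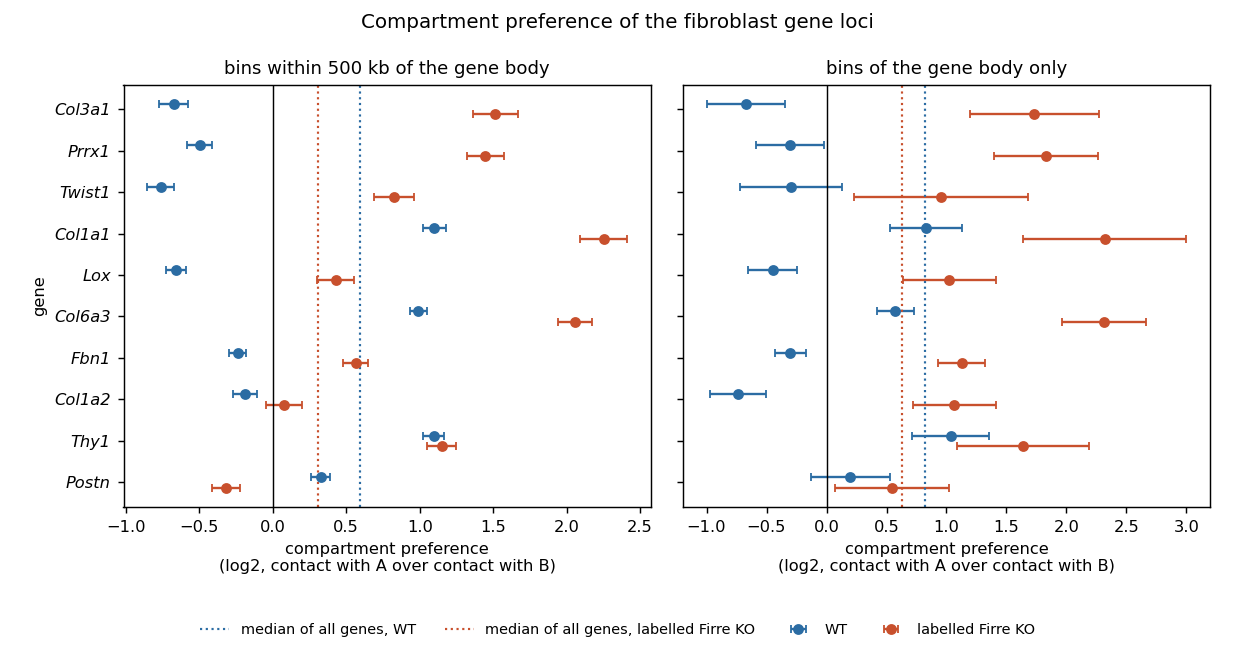
Compartment preference (log2, x axis) of each fibroblast gene locus in WT (blue) and in the KO-labelled matrix (red), over the window of 500 kb on each side (left) and over the bins of the gene body (right). Bars are 95% counting intervals and dotted lines the medians of all genes. In the windows, 9 loci lie farther to the right in the KO-labelled matrix and Postn farther to the left, and in the gene body all 10 lie farther to the right.

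Both transcription factor loci were among the largest differences. Prrx1, which encodes a paired-related homeobox factor of limb and craniofacial mesenchyme (chr1:165175247-165243841, minus strand), had a preference of -0.50 (-0.58 to -0.41) in WT and 1.45 (1.32 to 1.57) in the KO-labelled matrix. The difference of 1.95 (1.79 to 2.10) was exceeded by 3 of the 1225 genes of chromosome 1. Twist1, a basic helix-loop-helix factor that drives mesenchymal fate (chr12:34642536-34644682), had -0.76 (-0.85 to -0.67) and 0.82 (0.69 to 0.96). Its difference was 1.59 (1.42 to 1.75), and 2 of the 700 genes of chromosome 12 exceeded it. At both loci the contact with B windows was lower in the KO-labelled matrix, with 1.24 and 0.481 times the expected value at Prrx1 and 1.12 and 0.617 at Twist1. The contact with A windows was higher, with 0.877 and 1.31 at Prrx1 and 0.660 and 1.09 at Twist1.

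The fibrillar collagen loci differed by unequal amounts. Col3a1, the chain of type III collagen of distensible tissues (chr1:45368383-45406551), had -0.68 (-0.78 to -0.57) in WT and 1.51 (1.36 to 1.67) in the KO-labelled matrix. This difference of 2.19 (2.01 to 2.37) was the largest of the 10 loci and of all 1225 genes of chromosome 1. Type I collagen is built from the products of Col1a1 and Col1a2, which lie on different chromosomes and stood apart here. Col1a1 (chr11:94797538-94814356) preferred A in both matrices, with 1.10 (1.02 to 1.18) in WT and 2.25 (2.09 to 2.41) in the KO-labelled matrix, a difference of 1.15 (0.97 to 1.33). Col1a2 (chr6:4454814-4491543) had -0.19 (-0.27 to -0.11) and 0.08 (-0.05 to 0.20), and the second interval includes 0. Its difference over the window was 0.27 (0.12 to 0.42), at the 70.6 percentile of all genes. Over the bins of the Col1a2 gene body alone it was 1.80 (1.39 to 2.22), at the 98.995 percentile.

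Col6a3, a chain of type VI collagen, which forms beaded microfibrils around cells (chr1:92663435-92740529, minus strand), also preferred A in both matrices, with 0.99 (0.93 to 1.05) and 2.06 (1.94 to 2.18). The difference was 1.07 (0.94 to 1.2005), and 0.39 with the A and B windows of WT alone. Its contact with A windows was 1.21 in WT and 1.07 in the KO-labelled matrix, so the higher preference came with a lower contact with B windows, 0.612 against 0.257. Col3a1, Col6a3 and Prrx1 lie on the same chromosome, at least 47.4 Mb apart, and share its reference windows.

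Of the genes for elastic microfibrils and crosslinking, Fbn1, which encodes fibrillin-1 (chr2:125126330-125333729, minus strand), had -0.24 (-0.30 to -0.18) in WT and 0.56 (0.48 to 0.65) in the KO-labelled matrix, a difference of 0.80 (0.70 to 0.91). Lox, the lysyl oxidase that crosslinks collagen and elastin (chr18:52675723-52689521, minus strand), had -0.66 (-0.73 to -0.59) and 0.43 (0.30 to 0.55), a difference of 1.09 (0.94 to 1.23). Both loci crossed 0 with intervals that did not include it.

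The remaining loci did not share this pattern over the window. Thy1, a glycolipid-anchored surface protein that marks fibroblasts and also thymocytes and neurons (chr9:43851467-43856662), had 1.09 (1.02 to 1.16) in WT and 1.15 (1.05 to 1.25) in the KO-labelled matrix. The difference of 0.06 (-0.07 to 0.18) was within counting error, but with the A and B windows of WT alone it was -0.30. Postn, the matricellular protein periostin of bone and tooth ligaments (chr3:54165031-54194961), had 0.33 (0.26 to 0.39) and -0.32 (-0.41 to -0.22), so that its window was lower by 0.64 (0.53 to 0.76). Its difference was -0.32 with the A and B windows of WT alone and -0.22, under the threshold, in windows of 250 kb.

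In order of their preference in WT, Col1a1, Thy1 and Col6a3 were highest, followed by Postn, Col1a2, Fbn1, Prrx1, Lox, Col3a1 and Twist1. The neighbouring values of Col1a1 and Thy1, of Col1a2 and Fbn1, of Lox and Col3a1 and of Col3a1 and Twist1 differed by less than their counting error. In the KO-labelled matrix the order was Col1a1, Col6a3, Col3a1, Prrx1, Thy1, Twist1, Fbn1, Lox, Col1a2 and Postn, and the pairs Col1a1 and Col6a3, Col3a1 and Prrx1, and Fbn1 and Lox differed by less than their counting error. The loci that preferred A in WT included the 3 windows richest in GC, with 47.1% to 48.8% at Col6a3, Thy1 and Col1a1, while the 7 others had 38.2% to 42.9%. The windows of Col1a1 and Thy1 were also the richest in genes, with 29 and 28 protein-coding genes, and those of Col3a1 and Twist1 the poorest, with 4 each.

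Over the bins of the gene body alone, the preference was higher in the KO-labelled matrix at all 10 loci by at least 0.25, where 34.9% of all genes were, and the same 6 loci went from below 0 to above 0, where 5.24% of all genes did. Depth was lower there, and the intervals of the differences at Postn, 0.35 (-0.23 to 0.93), and Thy1, 0.60 (-0.04 to 1.24), included 0. Both Postn values had wide intervals, with 0.20 (-0.13 to 0.53) in WT and 0.55 (0.07 to 1.02) in the KO-labelled matrix. Of the loci that crossed 0, Twist1 had a WT value of -0.29 (-0.72 to 0.13), which was within counting error of 0. The differences at the other 8 loci ran from 1.25 at Twist1 to 2.40 at Col3a1. Among the genes of its own window, the gene body of Col1a2, Col3a1 and Postn had the highest difference of 8, 4 and 10 genes. The other 7 were not the highest of their windows. Col6a3 ranked 2 of 15, Prrx1 2 of 10, Twist1 3 of 4, Fbn1 4 of 15, Lox 5 of 7, Col1a1 6 of 29 and Thy1 9 of 28. These ranks take no account of counting error. The interval at Col3a1 (1.77 to 3.03) included the 2.19 of Col5a2, so its place was not resolved. Nor were those of Prrx1 (1.62 to 2.65), beside 2.44 at Gorab, and Twist1 (0.41 to 2.09), beside 1.83 at Hdac9. For Col1a2 and Postn the next values, 0.97 and -0.54, lay outside the interval of the fibroblast gene.

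The windows of Col1a2 and Postn held genes that differed in opposite directions. Next to Col1a2, the gene bodies of the imprinted genes Sgce and Peg10 had preferences of 0.97 and 1.14 in WT and of 0.25 and -0.40 in the KO-labelled matrix, whereas Col1a2 itself had -0.74 and 1.06. Around Postn, whose own difference had an interval that included 0, the 9 other genes of the window were all lower by at least 0.25, among them Trpc4, a cation channel gene, with -0.11 and -0.91, and Exosc8, a subunit of the RNA exosome, with 1.59 and 0.44. At Fbn1, 11 of 15 genes were higher by at least 0.25 and 3 were lower, of which Slc24a5, a melanosomal exchanger, had -0.04 and -0.47. At Col3a1, Col6a3, Prrx1 and Twist1 every gene of the window was higher by at least 0.25, the fibroblast gene among them. Of all gene bodies, 34.9% were higher by that much. The share that was lower is known for windows only, with 38.1% of all genes. Genes that lie in the same bins, such as Exosc8 and Alg5, have the same value. These counts and the ranks above therefore hold repeated values.

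The stretch of chromatin around each gene start in which the preference was higher by at least 0.25, in a running mean of 5 bins, differed in length between the loci. It spanned 5.76 Mb with 21 protein-coding genes at Lox, 4.08 Mb with 21 genes at Twist1, 2.76 Mb with 26 genes at Prrx1, 2.52 Mb with 27 genes at Col6a3 and 2.48 Mb with 18 genes at Col3a1. It was shorter at Fbn1, with 1.8 Mb, and at Col1a1, with 1.64 Mb, and spanned 0.72 Mb at Col1a2 and 0.2 Mb at Thy1. The largest difference in the stretch of Thy1 was 0.41, not far above the threshold. These lengths take no account of counting error, and none was measured around other genes. At the start of Postn the difference was 0.16, under the threshold. The largest difference inside a stretch could lie far from the gene. It lay 520 kb before the start of Col3a1, at 2.81, and 1840 kb beyond that of Lox, at 2.27, counted along the chromosome.

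**Figure D2:**
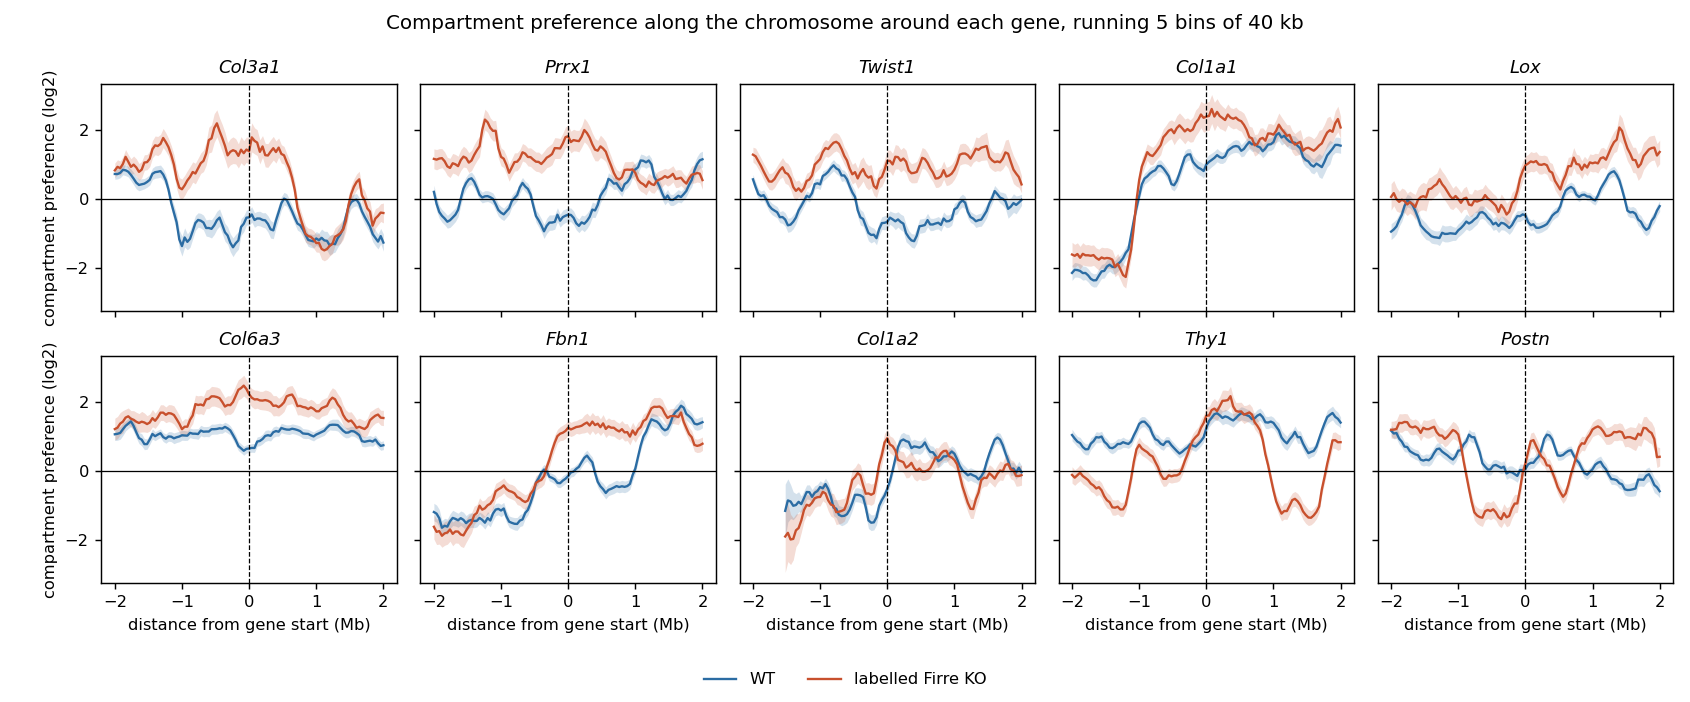
Compartment preference (log2, y axis) within 2 Mb of each gene start (x axis, in Mb in the direction of rising coordinates, dashed line at the start) in WT (blue) and in the KO-labelled matrix (red), with shaded 95% counting intervals. Around the start, the KO-labelled line lies higher by at least 0.25 over 2.48 Mb at Col3a1 and over 0.72 Mb at Col1a2. Farther out the lines part again at both, at Col1a2 with WT higher, and at Postn they cross on both sides.

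Contacts with other chromosomes gave a second view of the compartment from read pairs not used above. The preference computed from contacts with A and B windows of the other autosomes was higher in the KO-labelled matrix by 1.98 (1.86 to 2.10) at Prrx1, 1.68 (1.53 to 1.83) at Col3a1, 1.17 (1.04 to 1.31) at Twist1 and 1.10 (0.99 to 1.22) at Lox. It was higher by 0.77 at Col6a3, 0.68 at Fbn1 and 0.63 at Col1a1. At Thy1 the difference was -0.07 (-0.17 to 0.02) and at Col1a2 -0.05 (-0.16 to 0.07), both within counting error, and at Postn it was -0.66 (-0.76 to -0.56). The median difference over the loci was 0.72, beside -0.15 for all genes. The intervals do not include the uncertainty of the reference windows, which both views share.

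The same measure was read for other gene lists, beside the 5.5% of all genes that went from below 0 to above 0, the 30.4% that were higher by at least 0.25, the 38.1% that were lower and their median difference of -0.08. Of 40 further fibroblast genes for matrix, elastic fibres, crosslinking and regulation, 9 went from below 0 to above 0, 23 were higher by at least 0.25 and 9 were lower, with a median difference of 0.31. The largest were Col12a1, a collagen that associates with fibrils, with -0.90 in WT and 1.40 in the KO-labelled matrix, and Col5a2, a chain of type V collagen, with -0.64 and 1.33. Lum and Dcn, small proteoglycans that bind collagen fibrils and lie close together on chromosome 10, followed with -1.01 and 0.85 and with -0.97 and 0.87. Col5a2 lies 192 kb from Col3a1 in the same window, and without it the median of the list was 0.30. Of 24 pluripotency genes, 0 went from below 0 to above 0, 4 were higher and 15 were lower, with a median of -0.40. The lowest of them was Sall4, a zinc finger factor of pluripotent cells, with 1.67 and 0.19, followed by Sox2, with 0.60 and -0.75. Of 19 neural transcription factor genes, 2 went from below 0 to above 0, 3 were higher and 14 were lower, with a median of -0.60. From above 0 to below 0 went 3 of the 40 further fibroblast genes, 4 of the 24 pluripotency genes and 5 of the 19 neural genes. Of all genes, 13.3% did.

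**Figure D3:**
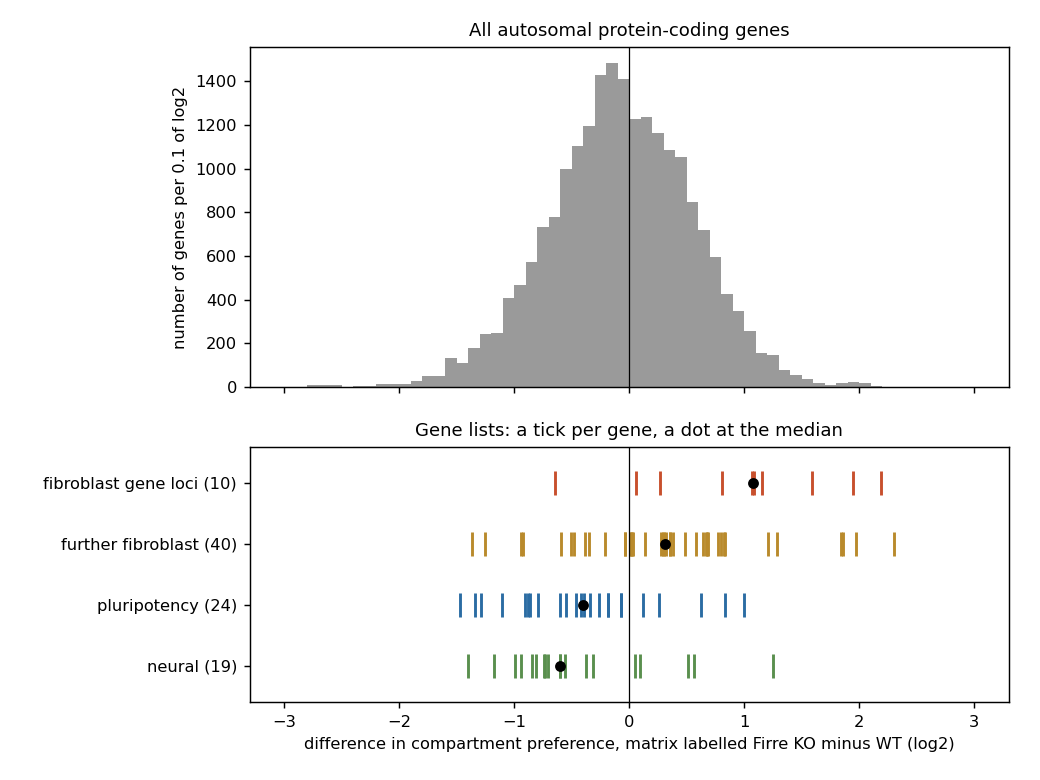
Difference in compartment preference (log2, x axis), KO-labelled matrix minus WT, as a histogram of 21238 genes (top, number of genes on the y axis) and as ticks for the genes of each list (bottom, dots at the medians). The medians are 1.08 for the 10 loci, 0.31 for the further fibroblast genes, -0.40 for the pluripotency genes and -0.60 for the neural genes.

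Contacts inside the window were averaged, as observed over expected values, across bin pairs from 80 kb apart, the expected value being the chromosome's mean at each distance. They were higher by at least 0.25 (log2) at 3 loci, where 4.27% of all genes were, and lower by that much at 0 loci, where 30.7% of all genes were. Twist1 had 1.18 (1.13 to 1.24) in WT and 1.497 (1.43 to 1.57) in the KO-labelled matrix, a log2 ratio of 0.34 (0.25 to 0.44). Col1a2 had 0.899 (0.866 to 0.932) and 1.12 (1.07 to 1.17), a log2 ratio of 0.31 (0.23 to 0.40), and Col6a3 had 0.931 and 1.11, a log2 ratio of 0.25 (0.20 to 0.30). Prrx1 and Col3a1 were higher by 0.14 each, and Postn, Thy1, Col1a1 and Lox had log2 ratios between -0.06 and 0.07 whose intervals included 0. At Fbn1 contacts were lower, with 0.723 and 0.630, a log2 ratio of -0.20 (-0.26 to -0.14), which turned to 0.13 within 250 kb. The median over the loci was 0.10 and that over all genes -0.13. Of the further fibroblast genes, 2 of 40 were higher and 9 lower by at least 0.25, with the largest log2 ratios at Loxl2 (0.46), Mfap2 (-0.46), Tagln (-0.45) and Serpinh1 (-0.40). The calls depended on the window. Within 250 kb, Twist1 had a log2 ratio of 0.022 and Thy1 one of 0.31, and 3 loci were again higher by at least 0.25, where 6.32% of all genes were. Over windows of 1 Mb on each side the median of the loci was -0.07, beside -0.19 for all genes, and Col3a1 and Col6a3 then had log2 ratios of -0.24 and -0.05.

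Contacts of the bin at the gene start with the rest of its window followed another order. They were higher at Twist1 by 0.63 (0.35 to 0.91) on the log2 scale and at Prrx1 by 0.42 (0.11 to 0.74), and lower at Col1a1 by 0.36 (0.11 to 0.61), from between 205 and 485 read pairs per matrix. They were also higher at Col6a3, by 0.29 (0.14 to 0.43), and at Postn, by 0.20 (0.01 to 0.39), and the intervals of the other 5 loci included 0. Among all genes, Twist1 stood at the 99.3 percentile, Prrx1 at 96.6, Col6a3 at 91.1, Postn at 84.8 and Col1a1 at 17.4. The share of all genes whose interval excluded 0 was not computed. The median of the loci was 0.17, beside -0.09 for all genes. Col1a2, second in contacts inside the window, had a log2 ratio of -0.02 (-0.25 to 0.21) here. Also noted was the bin of the window with the highest contact with the start bin, among those 80 kb or more away with at least 10 WT read pairs. Bins with fewer WT read pairs were left out for both matrices, and the noted bin was chosen by its value. For Postn in the KO-labelled matrix it lay 320 kb downstream at Fam48a, a subunit of the SAGA coactivator complex, with 4.16 (3.12 to 5.45) from 53 read pairs, where WT had 1.32 (0.91 to 1.86) from 33. For Col3a1 it lay 280 kb upstream, with 3.57 (2.08 to 5.71) from 17 read pairs against 1.65 (0.92 to 2.71) from 15, and these intervals overlap. For Col6a3 the same bin 200 kb away was highest in both matrices, with 2.93 and 3.25.

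Insulation was summarised as the log2 of contacts across a bin, in a square of 480 kb, over the mean of the chromosome, so that a low value marks a boundary between TADs. At the gene start it was higher by at least 0.5 at 1 locus, where 3.08% of all genes were, and lower by that much at 0 loci, where 31.8% of all genes were. The exception was Col1a2, with -0.72 in WT and 0.03 in the KO-labelled matrix, at the 99.3 percentile of the difference. With the plain mean of the square, for which an interval could be given, the difference at Col1a2 was 0.43 (0.28 to 0.58). Col3a1, Prrx1 and Twist1 had scores between 0.44 and 0.58 in both matrices, the highest of the loci and away from any boundary. Lox had the lowest, -1.14 and -1.37. The median difference of the loci was 0.07, beside -0.26 for all genes. Of the further fibroblast genes, 3 of 40 were higher and 13 lower by at least 0.5, with the largest differences at Mfap2 (-1.70), Pdgfra (-1.35), Serpinh1 (-1.19) and Tagln (-1.11). The differences at Fbn1 (-0.16) and Lox (-0.23) turned to 0.28 and 0.12 when the square was averaged plainly and to 0.79 and 0.04 in a square of 240 kb, and that at Postn (-0.34) turned to 0.04 in a square of 960 kb. The counts are those of the interquartile mean of the 480 kb square, and with its plain mean Col1a2 (0.43) was under the threshold. In a square of 960 kb, Fbn1 (-1.15), Col1a1 (-0.88), Col3a1 (-0.76) and Lox (-0.73) were lower by at least 0.5, as were 55.9% of all genes. Col1a2 (0.97) and Twist1 (0.56) were higher by that much there, as were 5.29%. In a square of 240 kb, Postn (-1.54) was lower by that much, as were 22.2% of all genes, Fbn1 (0.79) and Thy1 (0.59) were higher, as were 3.45%, and Col1a2 (0.38) was under the threshold.

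**Figure D4:**
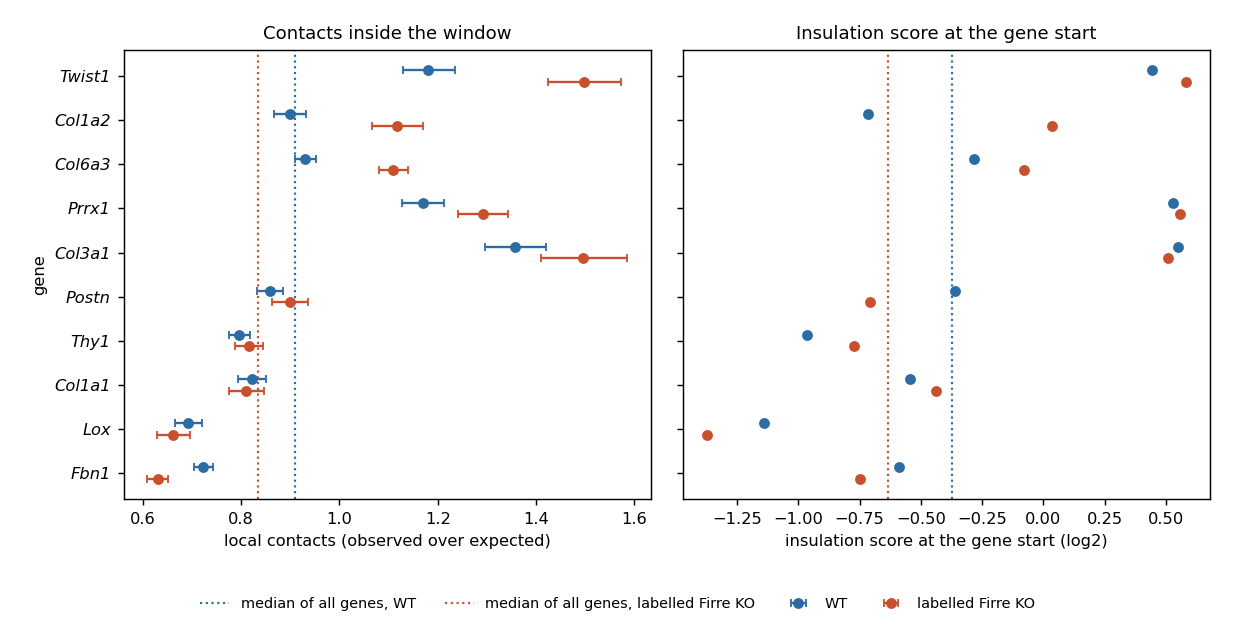
Contacts inside the window (left, observed over expected, bars are 95% counting intervals) and insulation score at the gene start (right, log2, no interval) of each locus in WT (blue) and in the KO-labelled matrix (red), with dotted lines at the medians of all genes. Twist1, Col1a2 and Col6a3 are shifted farthest to the right on the left side, and Col1a2 on the right side.

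Boundaries were called where the smoothed score passed from falling to rising along the chromosome, whatever its level. A boundary lay within 80 kb of the gene start at 4 loci in WT, where 26% of all genes had one, and at 4 loci in the KO-labelled matrix, where 26.5% did. At Lox and Col1a2 it lay in the start bin in both matrices. The boundary strength at Lox was 2.45 in WT and 2.77 in the KO-labelled matrix, and at Col1a2 it was 2.17 and 1.45. In WT the others were at Col1a1, 40 kb from the start bin, and at Thy1, 80 kb away. In the KO-labelled matrix they were in the start bins of Col6a3 and Thy1. The nearest boundary to Twist1 lay 560 kb away in both matrices. Of the 9 WT boundaries inside the windows, those of Col1a2, Fbn1 and Lox were found within 1 bin in the KO-labelled matrix (33.3%, Wilson interval 12.1% to 64.6%), as were 998 of all 2198 autosomal WT boundaries (45.4%). In a square of 960 kb the order turned, with 4 of 6 boundaries in the windows (66.7%, 30.0% to 90.3%) beside 27.7% of all. It also turned for boundaries in the exact same bin, with 2 of 9 (22.2%, 6.3% to 54.7%) beside 17.9% of all.

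The loci were finally compared in their contacts with each other. Of the 45 pairs, 42 join different chromosomes, and 163 read pairs joined their windows in WT, against 415 in the KO-labelled matrix. Relative to the mean contact between the same chromosomes, the value was 0.868 (0.723 to 1.04) in WT and 1.35 (1.21 to 1.51) in the KO-labelled matrix. The log2 ratio was 0.64 (0.33 to 0.95). For the gene body bins and the bins next to them alone it was 0.34, from fewer bins and without an interval. With the windows of the further fibroblast genes the loci had values of 1.09 and 1.41, a log2 ratio of 0.38 (0.28 to 0.47). With those of the pluripotency genes the values were 1.28 and 1.203, a log2 ratio of -0.09 (-0.21 to 0.03), and with those of the neural genes they were 1.01 in both, a log2 ratio of 0.00 (-0.15 to 0.15). Loci that share a compartment contact each other more often between chromosomes, so these values are not independent of the preferences above.

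**Figure D5:**
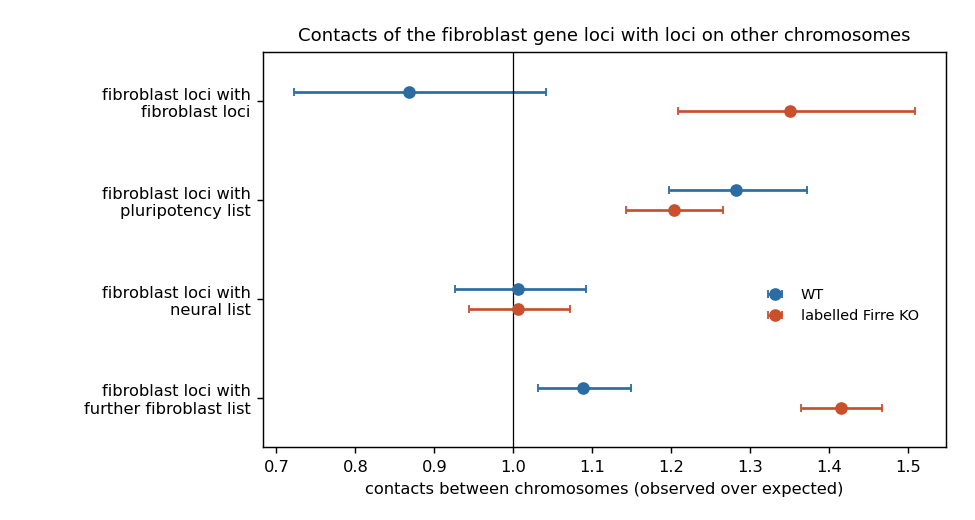
Contacts between the fibroblast gene loci and loci on other chromosomes (observed over expected, x axis) in WT (blue) and in the KO-labelled matrix (red), for each kind of partner (y axis), with 95% counting intervals and a line at 1. The intervals of the matrices do not overlap for contacts among the fibroblast loci and with the further fibroblast genes, and they overlap for the pluripotency and neural genes.

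The number of read pairs behind the loci also differed. Per 1000000 autosomal read pairs, the windows held between 384 at Col3a1 and 1295 at Fbn1 in WT, and the log2 ratio of the KO-labelled matrix over WT ran from -0.07 at Postn to 0.23 at Prrx1 and Lox, with a median of 0.12. For read pairs between chromosomes it was highest at Prrx1, with 0.61, and Col3a1, with 0.59, followed by Fbn1, with 0.43, and Lox, with 0.39. It was lowest at Thy1, with -0.08, and Col1a1, with -0.06, and was 0.05 at Col6a3. Preferences compare A with B windows within the same matrix, and the part of the depth in them was not tested.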

How the data were processed

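Hi-C was measured in 2 libraries labelled WT and 2 labelled Firre KO, all titled as male mESCs and pooled by the authors in 1 matrix per group. Per the submitters' processing notes, reads were processed with HiC-Pro 2.7.8 on mm9, and what the authors deposited is a signal for contacts between 40 kb bins after iterative correction, which gives all kept bins 1 common total and raises those with few reads. Each value was a whole number of read pairs times 1 weight per bin, and 100% of values came out within 0.05 of whole. Genes were those of the GENCODE vM1 annotation of mm9, whose chromosome lengths were the same as those of the bins. Measures were computed in Python 3.11.15 with numpy 2.4.6 and were tested on simulated data. Intervals came from the read pairs with weights held fixed (delta method, exact Poisson or Wilson).

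Compartments were the first eigenvector of observed over expected contacts in 200 kb windows, signed by gene number. Its correlation with gene number ran from 0.33 to 0.63 over the autosomes in WT and from 0.08 to 0.46 in the KO-labelled matrix. Signed by GC content, the median difference of the loci was again 1.08. A score of contacts within compartments relative to those between them had a median of 1.86 in WT and 2.01 in the KO-labelled matrix. The part of this in the differences was not tested. Insulation followed the study's settings (square 480 kb, delta span 320 kb, smoothing 160 kb, interquartile mean, strength above 0) in an own implementation. The members, gene lists and thresholds were chosen with earlier results of these data known. Of the further fibroblast list, the text names the 4 genes with the largest differences past the threshold in each of compartment preference, insulation and local contacts. Sall4 and Sox2, as the lowest of the pluripotency list, and the genes next to the loci were named after their values were seen. Sox1 of the neural list had no entry in the annotation. The alternatives tried were other windows, distances, squares, expected values, compartment signs and uncorrected read pairs.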

Additional observations from a re-analysis of the deposited data

How the results depend on the processing

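No paired analysis was possible because the libraries of each group were pooled in 1 matrix, and for the same reason no replicate could be left out. The median difference in compartment preference of the 10 loci (1.08) was 1.48 over gene bodies, 1.25 in windows of 250 kb, 0.70 with the signs of the WT eigenvector alone and 0.72 from other autosomes. In place of 6 loci, 1 crossed 0 in uncorrected read pairs (3.32% of all genes) and 4 from other autosomes (2.85%). With the signs of the WT eigenvector alone, 7 loci were higher by at least 0.25 (21.9% of all genes) and 2 lower (37.6%), Thy1 (-0.30) among them, in place of 8 and 1. Postn turned to 0.35 over its gene body and Col1a2 to -0.046 from other autosomes. The median insulation difference (0.07) was -0.11 for the lowest score within 80 kb. Insulation turned at Fbn1 (0.79) and Lox (0.039) in a square of 240 kb, at both with the plain mean (0.28 and 0.12), and at Postn (0.037) in a square of 960 kb. Col1a1 moved to -0.88 and Fbn1 to -1.15 at 960 kb, and Postn to -1.54, Twist1 to -0.49 and Col1a2 to 0.38 at 240 kb. The median log2 ratio of local contacts (0.10) was -0.067 in windows of 1 Mb (-0.19 over all genes), where Col3a1 (-0.24) and Col6a3 (-0.048) turned. Fbn1 turned in windows of 250 kb (0.13), where Twist1 lost its call (0.022) and Thy1 gained one (0.31), and Col3a1 in uncorrected read pairs (-0.040). Shared boundaries (33.3%) were 66.7% in a square of 960 kb, and all boundaries 27.7% in place of 45.4%. In the exact same bin they were 22.2%, and 17.9% for all boundaries. The median log2 ratio of depth (0.12) was 0.20 for read pairs between chromosomes, where Col1a1 (-0.056) and Thy1 (-0.078) turned. The cause of these changes was not tested. Contacts between the loci (0.64) were above 0 in all 3 alternatives, from 0.34 to 0.71, which are given without intervals. The lowest, 0.34, came from the fewest bins, those of the gene bodies and the bins next to them. Depth limits the gene body values, at Twist1 to 304 and 115 read pairs, and the partner bins, at Col3a1 to 15 and 17.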

Other observations

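The genes whose compartment preference and insulation at the start were most like the median of the 10 loci, over 4 standardised values and more than 2 Mb from any of them, were Dab2, Mbl2, C9, Lmo4 and Uqcrfs1. Dab2, which encodes an endocytic adaptor, had a preference of -0.10 in WT and 0.92 in the KO-labelled matrix, and an insulation score of -0.50 and -0.09. The median of the loci was -0.22 and 0.99 in preference and -0.45 and -0.26 in insulation score. The distance from this median was 0.246 for Dab2 and 0.289 for Uqcrfs1, and between 0.703 and 2.30 for the 10 loci themselves.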
